A study of Mus musculus with 14 samples.

Results

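The oocytes described here are those of females in which both copies of Kdm1a were deleted during oocyte growth. They are compared with one another, and control oocytes are set beside them only for Zbed3 and for the spread. The mutant oocytes were taken by their genotype label, Lsd1/Kdm1a mko/mko, which 8 of the 14 libraries of the series carry. The 8 libraries hold 5 names, D1, D2, D3, D4 and D7, out of 10 names in all. D3, D4 and D7 each have a pair of libraries, of which one carries the suffix DNA in its name, and the members of a pair were summed into 1 oocyte, whereas D1 and D2 have a single library without the suffix.

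The mutant females carried the Schüle floxed allele on both chromosomes and a cre transgene under the Zp3 promoter, on a mixed B6;129 background, so that the first exon of Kdm1a was removed in growing oocytes. The label mko/mko covers oocytes of such females, the flox/flox label, here f/f, covers 1 oocyte (C3) from a female with the floxed allele and without cre on the same mixed background, and the wt/wt label covers 4 oocytes (wt1, wt3, wt4 and wt5) of the strain C57BL/6J. Each sample was a single oocyte whose poly(A) RNA was copied into cDNA and amplified. The labels name no treatment, give no age and do not tie oocytes to females. The paper calls the oocytes of its transcriptome comparison ovulated, and it superovulated the females of its embryo collections. The extraction label speaks of embryos after the first cleavage, while the source and stage labels of all 14 libraries say oocyte. The labels also number the members of a pair as separate oocytes and do not say what the suffix stands for, so a pair was read as 1 oocyte from the shared name. The count of mutant oocytes in the methods is that of the names, not that of the libraries.

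A fully grown mouse oocyte makes almost no new RNA. It lives on transcripts stored during growth, many of them kept with short poly(A) tails and lengthened, translated or destroyed on cue as meiosis resumes, and sequence motifs near the 3' end take part in that choice. KDM1A, a demethylase of lysines 4 and 9 of histone H3, is one of the chromatin enzymes active in the growing oocyte. The questions asked here were which genes had different levels in different oocytes of 1 genotype, whether those differences were larger than the spread between libraries of 1 oocyte, and whether the mutant oocytes varied more than wt/wt oocytes.

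The mutant oocytes held 2016701 to 6926076 counts, with D4 the deepest, and 10322 to 13249 genes with a count. Levels are given as CPM, the counts per 1e6 of a library size scaled by TMM. Where both libraries of a pair are given, all values are on the scale of the 8 single libraries, and where 1 value is given per oocyte, on that of the 5 summed oocytes, so the same library of D1 or D2 has a slightly different value in each. Kdm1a itself (chr4:136550540-136602723, minus strand, mm10) had 0, 2, 1, 3, 3, 0, 1 and 9 counts in D1, D2, D3, D3-DNA, D4, D4-DNA, D7 and D7-DNA, too few to enter the tests. Of the library pairs, only that of D7 held more than 4 Kdm1a counts, and 9 of its 10 came from D7-DNA. Most listed markers of other cells had no count. Of 26 cumulus and granulosa genes 16 had no count in any mutant library, Foxl2, Fshr and Amh among them, and the list summed to 74.8 to 138 CPM, nearly all of it Cyp19a1 (68.9 to 129 CPM). The 13 blood and immune genes summed to 4.24 to 6.14 CPM, the 11 stroma and endothelium genes to 25.5 to 51.3 CPM, most of it Pecam1 (8.77 to 31.6 CPM) and Dcn (5.83 to 20.7 CPM), and the 4 Y chromosome genes had no count. Pecam1 and Dcn were called among oocytes (adjusted p = 0.00215 and 0.0347, edgeR), as was Laptm5 of the blood list, at 0 to 3.31 CPM. All 3 calls were lost with DESeq2, those of Pecam1 and Dcn without D4 and that of Laptm5 without D3. The part of other cells in the results was not tested.

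Zbed3, a zinc finger gene whose protein belongs to the subcortical maternal complex of the oocyte cortex, was the most abundant transcript in every mutant oocyte. It took 8.44% of the counts of D1, 6.02% of D2, 7.57% of D3, 8.89% of D4 and 7.67% of D7. Its level did not differ detectably among the 5 oocytes (77338 ± 11403 CPM, SD, n = 5, with an adjusted p of 0.949 from edgeR's quasi-likelihood test of the oocyte term). The f/f libraries held Zbed3 at a like share, 7.62% and 8.55%, and the wt/wt libraries at 0.0279% to 0.279%, so the marker did not set mutant oocytes apart from the f/f oocyte.

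Per kilobase of transcript, counting at most the last 3 kb because the cDNA method reaches no farther, the next genes of the mutant oocytes after Zbed3 (39762 CPM per kb) were Gdf9, the growth factor that oocytes send to their cumulus cells, at 22604, H1foo, the oocyte linker histone, at 19777, and Bcl2l10, a BCL2 family member, at 18030. Dppa3, which protects the maternal genome from demethylation, stood at 9407 CPM per kb and Ldhb, the heart-type lactate dehydrogenase subunit, at 9217. Omt2b, Tcl1, Omt2a and Pttg1, which encodes securin, completed the top 10 at 6996 to 8334 CPM per kb. The order was alike in the oocytes but not identical. Zbed3 was in place 1 in all 5, Gdf9 fell between places 2 and 4, and Bcl2l10 between 3 in D1, D2 and D7 and 6 in D4. Uchl1, a deubiquitinase abundant in oocytes, was in place 5 in D1, 19 in D2, 26 in D4, 149 in D3 and 165 in D7.

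Of these 10 genes only Bcl2l10, Omt2a and Omt2b passed the test among oocytes. Bcl2l10 had 28379 CPM in D1, 35355 in D2, 14276 in D3, 7278 in D4 and 24693 in D7 (adjusted p = 0.011, edgeR). It was lowest in D4, and its call was lost without D4 (adjusted p = 0.456), as were the calls of Omt2a and Omt2b, which were also lost without D2, with no filter and with DESeq2 size factors (adjusted p of 0.0530 to 0.104, edgeR). Omt2a and Omt2b share 37.2% and 35.4% of their 49-base words, the read length, so their counts could be split between them. In highly expressed genes the fit allows a wide spread: Gdf9 ran from 22751 CPM in D4 to 63202 in D1 without passing (adjusted p = 0.234), and it, Ldhb and Tcl1 were called once the suffix entered as a replicate block (adjusted p = 2.85e-06, 1.08e-11 and 2.05e-06) or with library totals (adjusted p = 0.00432, 0.00183 and 0.0118), as was H1foo with library totals (adjusted p = 0.0205).

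The genes that kept the most even level among those with at least 100 CPM in every oocyte, named here for their values and with no test, were Auh, Tbc1d1, Rbbp7, Eif1 and Tbc1d14. Auh, a mitochondrial hydratase that binds AU-rich RNA, had 269, 270, 279, 283 and 308 CPM in D1, D2, D3, D4 and D7, an SD of 0.08 on the log2 scale, against a median SD of 0.52 over the 785 genes at that level. Rbbp7, a histone-binding subunit of several chromatin complexes, stayed between 5624 and 7259 CPM. The evenness is that of summed pairs: the single libraries of Rbbp7 ran from 5280 to 8735 CPM, and Rbbp7, Eif1 and Tbc1d14 had an adjusted p of 0.0147, 4.23e-05 and 0.00747 for the suffix (edgeR).

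Many genes differed among the 5 oocytes, in a number that depended on the test and on D4. With the library pairs of D3, D4 and D7 as the measure of error, 5431 of 8704 genes were called, 62.4%, at an adjusted p under 0.05 and a range of at least 1 on the log2 scale between the highest and the lowest oocyte (edgeR's quasi-likelihood test of the oocyte term, Benjamini-Hochberg adjustment). The median range was 2.38 among called genes, and 1853 of them (34.1%) spanned at least 3 log2 units. D4 carried much of this: it was the highest oocyte for 34.2% of called genes and the lowest for 26.8%, and without it 2447 of 7978 genes were called (30.7%). DESeq2 called 3180 of the 8704 genes (36.5%). D4 also had the most counts, and with every library thinned to 929452 counts 4082 genes were called.

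**Figure D1:**
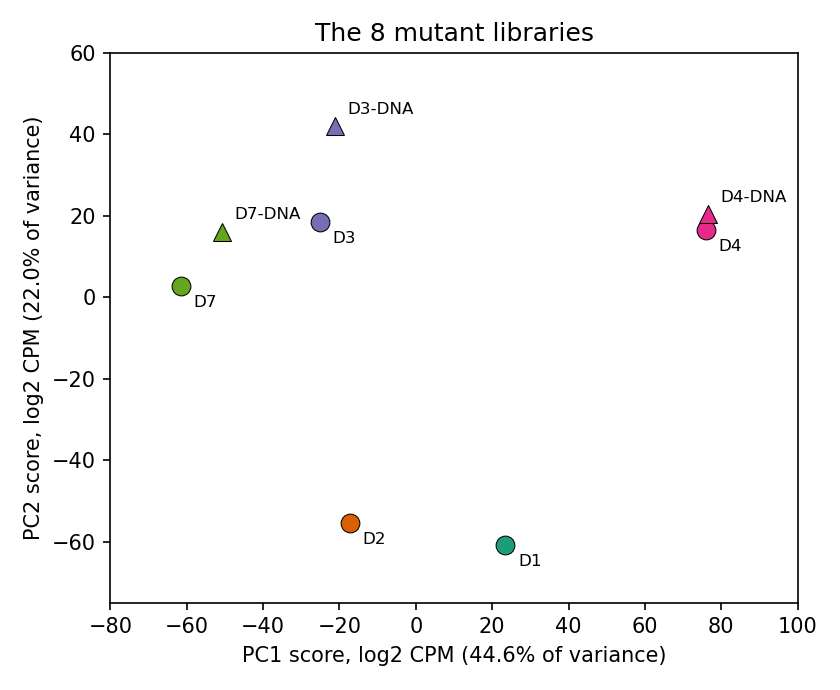
First 2 principal components of log2 CPM over the tested genes in the 8 mutant libraries, with circles for libraries without the suffix, triangles for those with the suffix DNA and 1 colour per oocyte. The axes carry 44.6% and 22.0% of the variance, the D4 libraries lie at 76.0 and 76.4 on the first axis, and D1 and D2 lie at -60.8 and -55.4 on the second.

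Libraries of the same oocyte lay close together. The distance, 1 minus Spearman's correlation over the tested genes, was 0.0469 within D3, 0.0232 within D4 and 0.0560 within D7, while the 25 pairs of libraries from different oocytes lay between 0.0913 and 0.222 apart. The ranges did not overlap. Among oocytes after summing, D3 and D7 were the closest pair at 0.0828 and D4 and D7 the most distant at 0.205, and D4 was on average 0.176 from the others while the rest were 0.116 to 0.136 from theirs. On the second component D1 and D2 stood apart from all 6 libraries of D3, D4 and D7, suffix or not, and they are also the oocytes with no second library, so that a difference of D1 and D2 from the rest cannot be told apart from that.

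**Figure D2:**
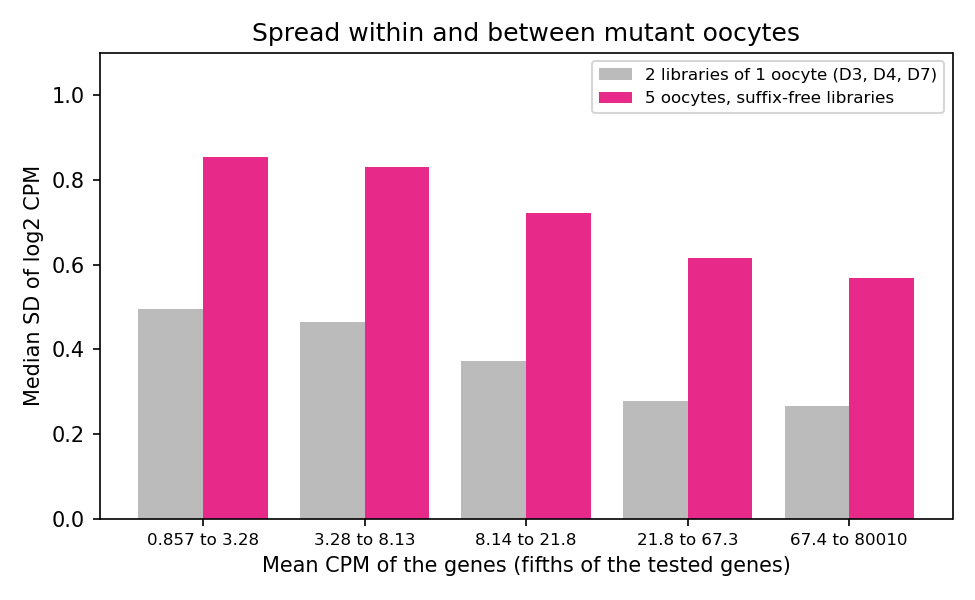
Median SD of log2 CPM in 5 equal groups of the tested genes ordered by mean CPM (horizontal axis). Grey bars give the SD within the pairs of D3, D4 and D7, falling from 0.496 to 0.266, and pink bars the SD between the 5 oocytes over their suffix-free libraries, falling from 0.855 to 0.568.

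Gene by gene, the median SD of log2 CPM was 0.71 between the 5 oocytes and 0.37 within pairs. The SD between oocytes was the larger for 85.2% of genes, from 79.8% to 89.5% in groups of genes of like abundance. Both fell with abundance, so the difference was not limited to rare transcripts. For D3, D4 and D7 the order of the oocytes, taken once from the libraries without the suffix and once from those with it, was the same in 51.0% of all genes, in 62.4% of called genes and in 32.1% of the others, where 6 orders are possible. Since genes were called by the same pairs, the difference between called and other genes follows from the call. The within-pair spread covers only the steps after a pair was split, and the sources used here do not say where that was. A difference between oocytes therefore includes the reverse transcription and amplification of each oocyte as well as its RNA, and these cannot be told apart.

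The 12 genes of smallest p were Zbed5, Sfr1, Hint1, Gm4745, Gm19757, Ippk, Gm813, Chchd2, Hmgn3, Hsp90aa1, Glyr1 and Gm10012. Most followed D4. Zbed5 (chr5:129895723-129903623, plus strand), a gene derived from a transposase, had 19.7 CPM in D1, 3.00 in D2, 2.94 and 2.76 in the libraries of D3, 254 and 182 in those of D4, and 0 and 1.64 in those of D7. Only the D4 libraries were high, and in the fit, which has D7 at 2 counts in all, D4 stood 5.93 ± 0.28 (SE) above the mean of the others on the log2 scale (adjusted p = 8.26e-11, edgeR).

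Hsp90aa1, the inducible HSP90 chaperone, had 139 CPM in D1, 35.5 in D2, 49.1 and 57.0 in D3, 1512 and 1342 in D4 and 43.2 and 68.7 in D7. Chchd2, a mitochondrial protein gene that neighbours Zbed5 on chromosome 5, had 299.8 CPM in D1, 2025 and 1475 in D4 and at most 48.7 in the libraries of the other 3 oocytes. Sfr1, Hint1, a nucleotide hydrolase, Ippk, the kinase that makes inositol hexakisphosphate, Gm19757, Gm813 and Glyr1 were likewise highest in D4. Chosen for their p, all 12 differ by construction, and their values are given to show the form of the differences.

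**Figure D3:**
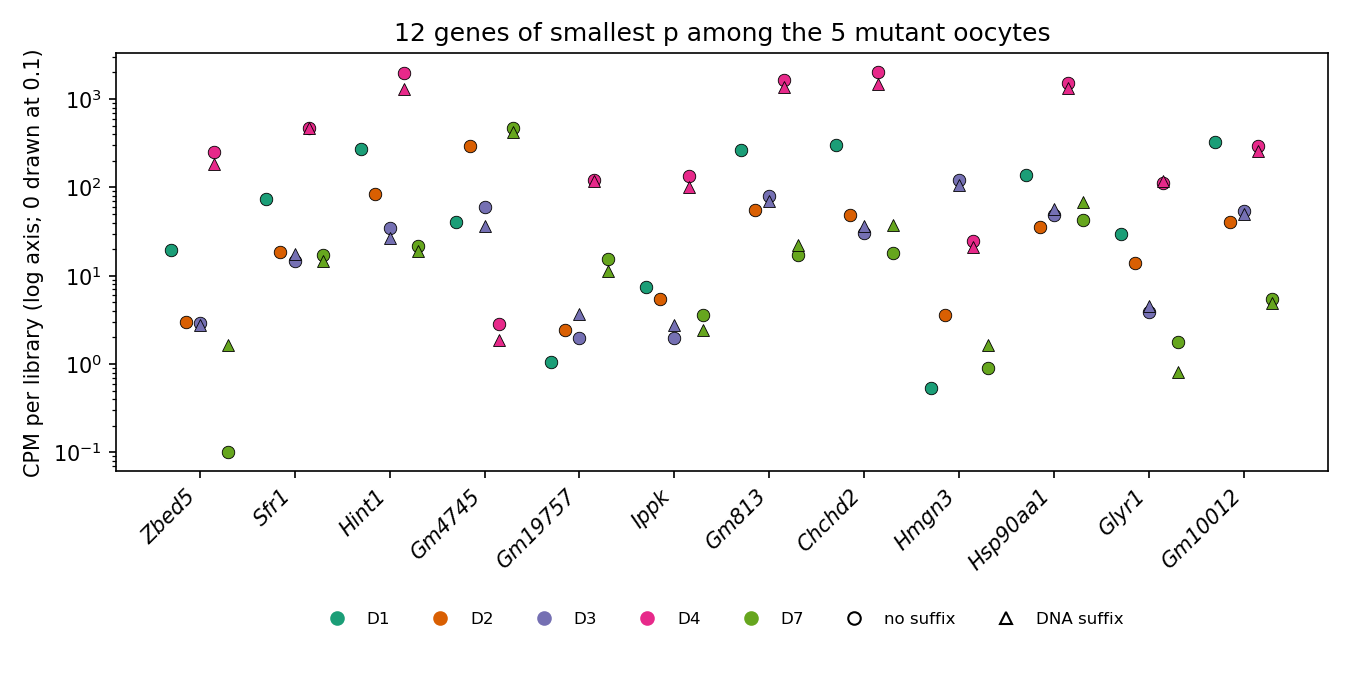
CPM on a log axis in each of the 8 mutant libraries for the 12 genes of smallest p, with 1 colour per oocyte, circles for libraries without the suffix and triangles for those with it, and a value of 0 drawn at 0.1. The 2 symbols of D4 lie close for Sfr1 (466 and 473 CPM, against 14.7 to 73.1 in the libraries of the other oocytes), while pairs at low levels can lie apart, as for Zbed5 in D7 at 0 and 1.64 CPM.

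Not every one of the 12 followed D4 upward. Gm4745 had 41.1 CPM in D1, 293 in D2, 59.4 and 36.8 in D3, 2.84 and 1.89 in D4 and 470 and 427 in D7, so that D7 and D2 were high and D4 low. Hmgn3, a nucleosome-binding protein gene, had 0.534 CPM in D1, 3.61 in D2, 123 and 108 in D3, 24.5 and 21.3 in D4 and 0.900 and 1.64 in D7, with D3 the highest. Gm10012 followed Cox7c, a subunit of cytochrome c oxidase (r = 0.993 over the 8 libraries, a description), and 56.2% of its 49-base words occur in Cox7c, so both may share reads.

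Each oocyte was next set against the mean of the other 4. In D1, 1198 genes (13.8% of those tested) were called higher and 169 (1.94%) lower, while DESeq2 called 397 and 63 and the thinned counts 806 and 96. Zp1, which encodes a protein of the zona pellucida, led the higher genes with 746 CPM in D1, against 111 in D2, 12.2 in D3, 73.9 in D4 and 54.0 in D7. D1 was above every other oocyte, by 4.06 ± 0.27 (SE) log2 units on the mean of the others (adjusted p = 3.72e-08, edgeR). Hspb1, a small heat shock protein gene, had 564 CPM in D1 and 32.6 to 156 in the others.

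The lower genes of D1 included transcripts that were not counted at all. Trim35, a ubiquitin ligase gene, and Tmem164 had no count in D1 and 20.9 ± 7.22 and 21.5 ± 14.1 CPM (SD, n = 4) in the other oocytes. Against 3 counts in D1 they were at least 14.5-fold and 14.9-fold lower there than the mean of the others, and at least 9.92-fold and 3.61-fold lower than the lowest of them. Mest, an imprinted hydrolase gene, had 44.7 CPM in D1 and 139 to 260 in the others (-2.001 ± 0.37 log2 units, SE, adjusted p = 0.000810, edgeR).

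D2 differed least in number after D4 was set aside. In D2, 730 genes (8.39%) were called higher and 224 (2.57%) lower, while DESeq2 called 229 and 137, and without D4 in the fit 253 were called in all. Exosc2, a subunit of the RNA exosome, had 225 CPM in D2 and 14.1 to 42.1 in the others, and Stxbp2, a syntaxin-binding protein gene, had 75.3 and 8.18 to 20.2. Xlr4b, an X-linked imprinted gene, had no count in D2 and 4.33 to 42.0 CPM elsewhere, at least 9.32-fold lower than the mean of the others, in which D4 stood highest, and at least 2.72-fold lower than the lowest of them. Smc4, a condensin subunit, had 21.7 CPM in D2 but also 25.9 in D7.

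In D3, 360 genes (4.14%) were called higher and 702 (8.07%) lower, while DESeq2 called 205 and 347. Cobl, an actin nucleator, had 73.9 CPM in D3, 29.8 in D7, 16.4 in D2, 13.5 in D1 and 1.91 in D4. Rplp1, a ribosomal stalk protein gene, stood among the lower genes with 47.9 CPM in D3, 72.8 in D7, 196 in D4, 302 in D2 and 1561 in D1, a spread in which D1 stood highest.

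In D4, 2113 genes (24.3%) were called higher and 1218 (14%) lower, more than in any other oocyte, while DESeq2 called 1401 and 835. Beside Gm4745 the leading lower gene was Mtss1, a membrane-bending scaffold gene, with 5.94 and 7.54 CPM in the D4 libraries and 39.7 to 116 in the others (-3.63 ± 0.28 log2 units, SE, adjusted p = 9.53e-09, edgeR). In D7, 437 genes (5.02%) were called higher and 938 (10.8%) lower, while DESeq2 called 295 and 511. Helq, a DNA repair helicase gene, had 84.6 and 217 CPM in the D7 libraries and 4.80 to 40.5 in the others, and Cox7c had 9.00 and 4.91 in D7 and 39.7 to 489 in the others. Helq also passed the suffix test described below, being higher with the suffix by 1.05 log2 units (adjusted p = 0.000114, edgeR).

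The split into higher and lower genes depends on the scaling. With library totals in place of TMM, 558 genes were called higher and 272 lower in D1, 317 and 246 in D2, 415 and 487 in D3, 2522 and 744 in D4, and 773 and 558 in D7, so that in D7 the larger class turned from lower to higher. The median difference of all tested genes moved with it, from 0.17 to -0.15 log2 units in D1 and from 0.15 to 0.41 in D4.

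Gene lists are described by counts of called members and by medians, with no test of a list. They are to be read against all tested genes, of which 62.4% were called among oocytes. Per oocyte, 13.8%, 8.39%, 4.14%, 24.3% and 5.02% of all genes were higher and 1.94%, 2.57%, 8.07%, 14% and 10.8% lower in D1, D2, D3, D4 and D7, with medians of 0.17, 0.12, -0.05, 0.15 and -0.11 log2 units. The list of zona proteins, transcription factors and growth factors of the oocyte also holds other genes, such as Uchl1. It had 11 of 15 tested members called among oocytes (73.3%, against 62.4% of all genes), with a median range of 3.17 log2 units against 1.96. In D1, 7 were called higher and 0 lower, and in D7, 0 higher and 8 lower, with medians of 1.02 and -1.65 log2 units against 0.17 and -0.11 for all genes. With library totals the D1 and D7 counts were the same and 14 of 15 were called among oocytes.

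Within that list Zp1, Zp2, Zp3 and Uchl1 passed the test and the growth factors Gdf9 and Bmp15 did not. Zp3 had 5214 CPM in D1, 1192 in D2, 467 in D3, 1220 in D4 and 464 in D7, and Zp2 had 3337, 570, 1331, 1573 and 374. Uchl1 had 19573 CPM in D1, 5268 in D2, 558 in D3, 2794 in D4 and 414 in D7 (adjusted p = 6.75e-07, edgeR), a range of 5.73 log2 units in which D1 was highest. Bmp15, the partner of Gdf9, had 5725 to 8945 CPM (adjusted p = 0.725).

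Figla and Lhx8, transcription factors that switch on oocyte genes, had their 5 oocytes in the same order. Figla had 29.3 CPM in D1, 10.6 in D2, 2.82 in D3, 40.2 in D4 and 0.877 in D7, and Lhx8 had 290, 107, 60.7, 310 and 29.8. Both were highest in D4 and D1 and lowest in D7.

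The subcortical maternal complex and other maternal effect genes had 11 of 19 called (57.9%, against 62.4% of all genes), but 15 with library totals (78.9%, against 57.1%), 10 with DESeq2 (52.6%, against 36.5%) and 8 without D4 (42.1%, against 30.7%). Padi6, an enzyme of the cytoplasmic lattices, had 584 CPM in D1, 141 in D2, 86.1 in D3, 1566 in D4 and 42.1 in D7, and Npm2, the oocyte nucleoplasmin, had 557, 145, 127, 786 and 43.4. Zfp57, which keeps imprints, had 74.6 CPM in D1, 6.36 in D2, 11.9 in D3, 111 in D4 and 15.4 in D7. Khdc3, of the subcortical complex, had 120 CPM in D1, 44.6 in D2, 19.1 in D3, 37.4 in D4 and 7.02 in D7. The first 3 were highest in D4 and Khdc3 in D1, whereas Trim28, a corepressor, was lowest in D4 at 124 CPM against 217 to 794. Of the list 7 were called higher and 0 lower in D1, 5 higher and 1 lower in D4, and 0 higher and 6 lower in D7, with medians of 0.78, 0.47 and -0.68. Zbed3, H1foo, Dppa3 and Zar1 did not pass.

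Of 26 tested genes of the meiotic cell cycle and metaphase arrest 20 were called (76.9%), and without D4 9 of 26 (34.6%, against 30.7% of all genes). In D4 they split evenly, 9 higher and 9 lower, with a median of -0.05. Bub1, a spindle checkpoint kinase, had 54.4 CPM in D1, 11.7 in D2, 16.0 in D3, 152 in D4 and 4.39 in D7, whereas Plk1, a kinase of mitotic entry, had 199, 158, 37.3, 25.9 and 42.5. Fzr1, an activator of the anaphase-promoting complex, had 77.4, 38.2, 5.95, 41.1 and 7.90. Mos, the kinase that holds eggs at metaphase, had 121 CPM in D4 and 452 to 791 in the others. Ccnb3, cyclin B3, had no count in either D7 library and 6.36 to 35.3 CPM elsewhere, at least 4.84-fold lower than the lowest other oocyte against 3 counts and at least 14.5-fold lower than their mean, in which D1 and D4 were high. Ccnb1 had 1683 CPM in D1, 5479 in D2, 3376 in D3, 1008 in D4 and 2032 in D7.

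**Figure D4:**
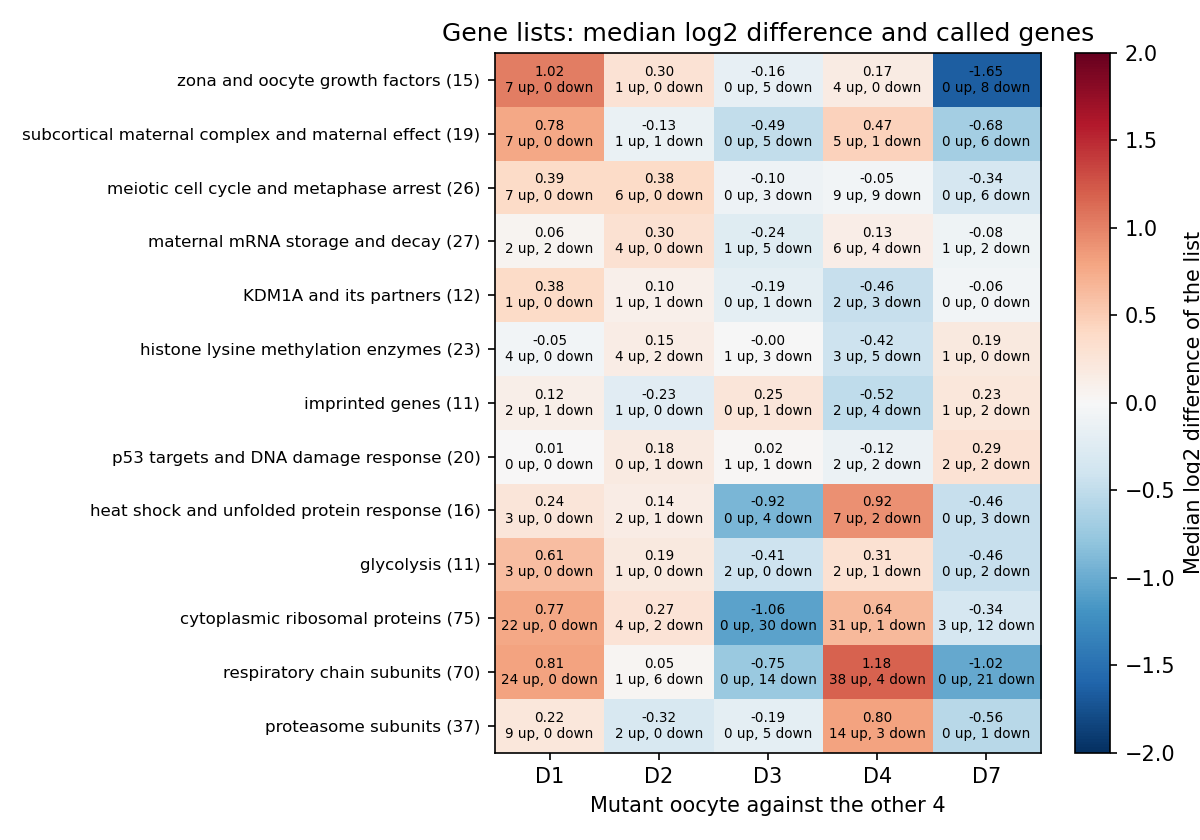
Median log2 difference of each gene list (rows, tested members in brackets) in each mutant oocyte against the other 4 (columns), with colour from blue for lower to red for higher and the number of members called higher and lower below each median. The respiratory chain subunits run from 1.18 in D4 to -1.02 in D7. The row labelled zona and oocyte growth factors, which also holds other genes, runs from 1.02 in D1 to -1.65 in D7. Its growth factors Gdf9 and Bmp15 did not pass among oocytes.

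Of 70 tested subunits of the respiratory chain 58 were called among oocytes (82.9%, against 62.4% of all genes), with 38 higher and 4 lower in D4, 24 higher and 0 lower in D1, 0 higher and 21 lower in D7 and 0 higher and 14 lower in D3. The medians were 1.18 in D4, 0.81 in D1, -1.02 in D7 and -0.75 in D3. Cox7b had 40.4 CPM in D1, 18.03 in D2, 15.03 in D3, 142 in D4 and 7.46 in D7, and Atp5e, of the ATP synthase, had 65.9, 17.0, 14.1, 88.8 and 9.65. The summed level ran from 3804 CPM in D7 to 7822 in D1. The signs of these medians in D1, D3, D4 and D7 were the same under library totals and DESeq2 size factors, whereas that of D2 (0.05) was not. The counts moved more. DESeq2 called 33 higher in D4, 10 higher in D1, 13 lower in D7 and 6 lower in D3. Without D4, 2 were higher and 3 lower in D3, and 1 higher and 12 lower in D7. Without D7, 1 was higher and 31 were lower in D3.

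Of 75 tested cytoplasmic ribosomal proteins 59 were called (78.7%). In D1, 22 were higher and 0 lower, in D3, 0 and 30, in D4, 31 and 1, and in D7, 3 and 12, with medians of 0.77, -1.06, 0.64 and -0.34. DESeq2 called 10 higher in D1 and 16 lower in D3, library totals 12 higher in D1, and the median of D7 was -0.09 with library totals, -0.02 without D4 and -0.80 without D3, where 24 were lower. Rpl5 had 140 CPM in D1, 82.2 in D2, 54.8 in D3, 420 in D4 and 31.6 in D7, but Rplp2, the other stalk protein, was lowest in D4 at 12.6 CPM and highest in D1 at 177. The list had a summed level of 9808 CPM in D1 and 3309 in D7. Ribosomal protein genes have many processed copies in the genome that could take part of their reads. Without D4, 32 of 67 respiratory chain genes and 31 of 73 ribosomal protein genes were called, against 30.7% of all genes.

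The heat shock and unfolded protein response list had 13 of 16 called (81.2%), with 7 higher and 2 lower in D4 and a median of 0.92 there. Its members went different ways: Hsp90aa1 was highest in D4, as was Atf4 at 355 CPM against 48.2 to 225, Hspb1 was highest in D1, and Hsf1, the transcription factor of the heat shock response, had 27.9 CPM in D1, 45.6 in D2, 16.3 in D3, 11.3 in D4 and 46.9 in D7. The proteasome subunits had 28 of 37 called (75.7%), with 14 higher and 3 lower in D4 and a median of 0.80 there. Its 4 genes of smallest p went both ways: Psmb3 and Psmd3 were lowest in D4 at 4.32 and 18.3 CPM and highest in D1 at 65.4 and 99.1, Psma7 was highest in D1 at 51.9 CPM, and Psmb4 was highest in D4 at 21.4 CPM. The glycolysis list had 8 of 11 tested members called (72.7%), but with DESeq2 3 of 11 (27.3%, against 36.5% of all genes) and without D4 4 of 11. Pkm ran from 3.51 CPM in D7 to 40.4 in D1 and Hk2 from 0 in D2 to 7.83 in D3. Pdha1, a pyruvate dehydrogenase gene that the list also holds, ran from 4.77 in D2 to 22.4 in D4. The list includes Gapdh, which had 208 CPM in D1, 251 in D2, 79.8 in D3, 25.4 in D4 and 136 in D7 (adjusted p = 1.62e-06, edgeR).

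Of the reference genes, Gapdh thus varied by 3.44 log2 units, Hprt had 97.2, 101, 253, 193 and 203 CPM in D1, D2, D3, D4 and D7 (adjusted p = 0.0167), and Ppia stayed at 99.3 to 134 CPM (adjusted p = 0.57). The call of Hprt was lost without D1 or without D3. Nnt, which carries a deletion in C57BL/6J mice, had 4.33, 1.06, 6.26, 4.83 and 1.32 CPM and passed narrowly (adjusted p = 0.0445), a call lost in 7 alternatives, library totals and DESeq2 among them.

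Of 23 tested histone lysine methylation enzymes 16 were called (69.6%), near the 62.4% of all genes, with a median of -0.42 in D4. Setd1a, a methyltransferase of histone H3 lysine 4, had 144 CPM in D1, 96.0 in D2, 26.3 in D3, 12.5 in D4 and 32.9 in D7, Kmt2b, the main such enzyme of the growing oocyte, had 114, 85.9, 28.5, 27.0 and 64.5, and Kdm6b, a demethylase of lysine 27, had 98.1, 81.7, 27.2, 16.3 and 89.0. All were highest in D1 and lowest in D4. Nsd1, of lysine 36, was highest in D4 at 63.6 CPM.

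Of 12 tested partners of KDM1A 8 were called (66.7%), near the background, but DESeq2 called 1 of 12 (8.33%, against 36.5% of all genes) and the thinned counts 2 of 11 (18.2%, against 50.1%). Hdac2, the deacetylase of the KDM1A complexes, had 64.0, 33.9, 94.2, 96.1 and 68.4 CPM in D1, D2, D3, D4 and D7, a call lost without D2. Zfp217 had 5.59 CPM in D4 and 0.439 to 0.626 in the others, Hmg20b had 8.18 in D1, 4.24 in D2 and 0.439 to 0.763 in the others, and Zmym3 had 2.42 in D4 and 5.77 to 13.6 in the others. These are low levels, and DESeq2 called none of those 3 genes. The list summed to 245 CPM in D2 and 366 in D7. Of 27 tested genes of maternal mRNA storage and decay 15 were called (55.6%), near the background. Pabpn1l, a poly(A)-binding protein gene, had 168 CPM in D2, 123 in D7 and 22.5 to 24.1 in the others. Cnot3, a subunit of the deadenylase complex, had 247 CPM in D1, 183 in D2 and 31.1 to 48.2 in the others. Eif4enif1, which keeps mRNAs in store, had 1780 CPM in D4 and 232 to 816 in the others, and Parn, a poly(A) ribonuclease, had 3.51 in D7 and 11.6 to 29.8 in the others.

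The p53 targets and DNA damage response had 9 of 20 called (45%, against 62.4% of all genes), and 7 with DESeq2 (35%, against 36.5%). Mdm4, an inhibitor of p53, had 150 CPM in D1, 41.9 in D2, 63.2 in D3, 754 in D4 and 39.5 in D7, and Gadd45a, a p53 target, had 18.9 in D7 and 3.18 to 5.29 in the others. Mdc1, a DNA damage mediator, ran from 2.19 CPM in D3 to 17.4 in D4, and Trp53 itself from 11.4 in D7 to 40.1 in D3. The calls of Gadd45a and Trp53 were lost without D7 and that of Mdc1 without D4. Of 11 tested imprinted genes 8 were called (72.7%, against 62.4% of all genes), 5 with DESeq2 (45.5%, against 36.5%) and 5 without D4 (45.5%, against 30.7%). Mest was lowest in D1, Gnas ran from 311 CPM in D7 to 1144 in D4, and Igf2r from 24.9 in D4 to 94.7 in D7. Phlda2 had 40.9 CPM in D1, 31.3 in D2, 11.3 in D3, 3.81 in D4 and 3.95 in D7. The call of Mest was lost without D1 and that of Igf2r without D4. Of 28 listed genes tied to the 2-cell stage 27 were in the table and 4 could be tested, and all 4 were called. Dppa2, an activator of embryonic genes, had 23.8 CPM in D4 and 0.939 to 6.73 in the others, and Tcstv1 stayed at 23.7 to 46.7 CPM, a call that 8 alternatives did not give. Tcstv3 had 3.07 to 12.99 CPM, a call lost in 6 alternatives, and Dppa4 had 0 to 3.69 CPM, a call lost with DESeq2 and without D7, while that of Dppa2 was lost without D4. The clustered histone genes, whose mRNAs mostly lack poly(A), had 1 member tested, Hist1h2bc, at 19.6 CPM in D2 and 54.8 to 85.2 in the others.

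Of 6 tested genes of the Obox and oogenesin families 3 were called lower and 2 higher in D4. Obox1 and Obox2 are homeobox genes of a cluster on chromosome 7 that oocytes express. Obox1 had 4286 CPM in D1, 7445 in D2, 3249 in D3, 769 in D4 and 5052 in D7, and Obox2 had 4410, 7649, 3301, 664 and 5067. D4 stood 2.66 ± 0.41 and 2.89 ± 0.42 (SE) log2 units below the mean of the others (adjusted p = 3.53e-05 and 1.73e-05, edgeR), and neither was called among the 4 oocytes without D4. Obox1 and Obox2 share 56.8% and 63.2% of their 49-base words and are close to 1 measurement. Obox5 had 996 CPM in D4 and 1985 to 4362 in the others, whereas Oog4 was highest in D4 at 463 CPM against 39.8 to 125.5. Gm4745, which the annotation names Obox7 and which was not in the list, was lower in D4 as well, and it shares 4.16% of its words with Obox2.

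The sequences at the 3' ends of Obox2 and of other genes that D4 had low or high are shown because such ends carry the cytoplasmic polyadenylation motif, TTTTAT or TTTTAAT in the DNA, that marks stored mRNAs for a longer tail. The 30 bases around the last match within 100 bases of the annotated end were read 5' to 3' from the longest protein-coding GENCODE transcript on GRCm38 (mm10), with the motif in capitals. Obox2, Gm4745, Bcl2l10, Setd1a and Phlda2 were called lower in D4, and Mdm4 and Hmgn3 higher.
Obox2: tcttaattTTTTATtgttagagtatatgtt
Gm4745: ttaattttTTTTATtgttagagaatatgtt
Bcl2l10: taatacatTTTTAATaacttcaaattctta
Setd1a: caccacatTTTTATaattgtgattaaactt
Phlda2: ttaatattTTTTATaccatattttcattcc
Mdm4: taatgcggTTTTATtgtgtttttgtgtgat
Hmgn3: ttatgtgaTTTTAATgaaatatggatagtt

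These stretches lie at chr7:15398482-15398511 (plus strand, Obox2), chr7:14665935-14665964 (plus strand, Gm4745), chr9:75351583-75351612 (plus strand, Bcl2l10), chr7:127800080-127800109 (plus strand, Setd1a), chr7:143501578-143501607 (minus strand, Phlda2), chr1:132986238-132986267 (minus strand, Mdm4) and chr9:83110001-83110030 (minus strand, Hmgn3), each in the 3' UTR. A match is a string of letters and no proof of use, and the annotated end need not be the end used in oocytes.

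The motif was unevenly spread over the genes called. It was found on the transcript strand in the last 100 bases of 22.1% of the 8119 tested genes with a 3' UTR of at least 100 bases. Among genes called lower in D4 31.5% held it and among those called higher 13.9%. D7 showed the opposite shares, 12.04% of its lower and 30.02% of its higher genes, and D3 was like D7 with 13.4% and 27.4%. In D1 the shares were 24.1% of lower and 15.7% of higher genes, and in D2 22.5% and 27.0%. The general poly(A) signal, AATAAA or ATTAAA, in the same 100 bases moved with the motif. In every oocyte the class with the larger motif share also held the signal more often. In D4 it was found in 89.3% of lower and 79.3% of higher genes, against 84.7% of all. The contrasts share oocytes, so these shares are not independent of each other, and no test was made of them.

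**Figure D5:**
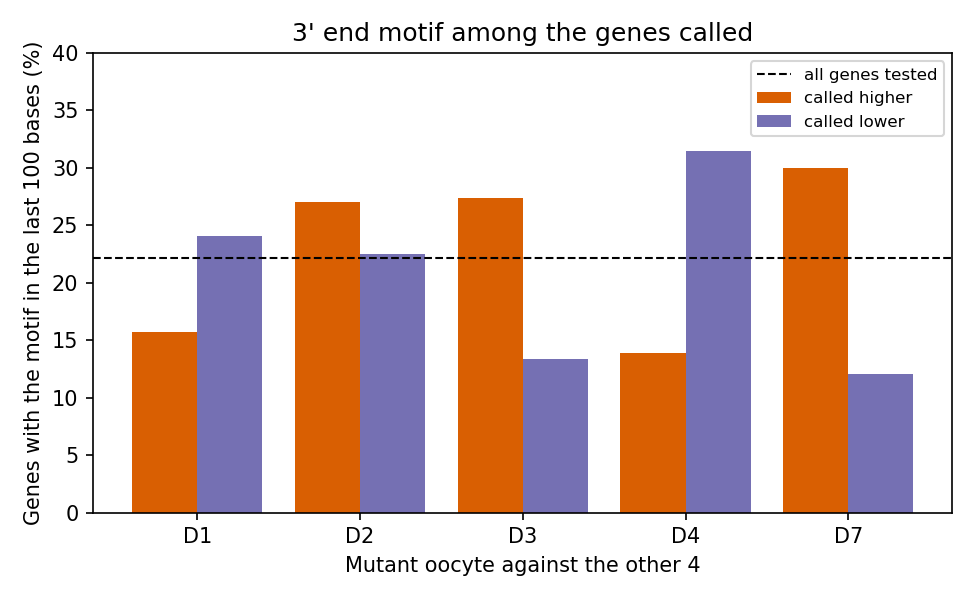
Percent of genes with TTTTAT or TTTTAAT in the last 100 bases of the transcript among genes called higher (orange) and lower (violet) in each mutant oocyte against the other 4, with the share over all tested genes, 22.1%, as a dashed line. D4 has 13.9% of higher and 31.5% of lower genes, and D7 has 30.02% and 12.04%.

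Base composition and length moved with the oocytes as well. Over 8656 annotated genes, which are not independent replicates, the departure of an oocyte from the median of the 5 had a Spearman correlation with GC content of the last 3 kb of 0.352 in D1, 0.294 in D2, -0.329 in D3, -0.139 in D4 and -0.185 in D7, and with transcript length of -0.158, -0.0679, 0.141, -0.0848 and 0.152. D1 and D2 thus had more of GC-rich transcripts and D3 less. In D1, D3 and D7 the class of called genes with the larger share of the AT-rich motif had the lower median GC content, 45.3% against 53.8% in D1, 44.5% against 52.5% in D3 and 45.3% against 48.9% in D7. In D4 and D2 it had the higher, 51.3% against 46.9% in D4 and 52.5% against 43.2% in D2. The part of composition and length in the differences between oocytes was not tested.

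Of 8703 genes tested over the 6 paired libraries, 112 were called between libraries with and without the suffix (1.29%), 53 higher and 59 lower with it. Mos had 680 and 218 CPM in D3, 166 and 82.2 in D4 and 649 and 254 in D7 without and with the suffix (-1.34 ± 0.17 log2 units, SE, adjusted p = 1.3e-11, edgeR). In all 3 oocytes it was lower with the suffix, as were Rpl41, Ddb1, Furin, Tle6 and Uchl1. Zfp488 was higher with the suffix, 1.47 and 13.8 CPM in D3, 4.65 and 17.8 in D4 and 8.10 and 36.0 in D7. The split depended on the setting, with 179 higher and 7 lower with library totals, 7 and 49 with DESeq2, and 130 and 416 by an adjusted p alone. Without the oocyte as a block edgeR called 0 genes for the suffix (87 at an unadjusted p under 0.05). H1foo, Ldhb and Gdf9 differed by -0.90, -0.97 and -0.72 log2 units with the suffix (adjusted p = 1.16e-06, 1.83e-07 and 0.000214, edgeR), short of the threshold of 1. Of the 112 genes 75 were also called among oocytes, near the share of all tested genes, of which 62.4% were called. All genes of an adjusted p under 0.05 for the suffix were also removed before the filter and the fit, which changes the genes kept and the error. Of 8330 genes 5748 were then called among oocytes.

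The mutant oocytes were finally compared in spread with the 4 wt/wt oocytes, each by 1 library without the suffix thinned to 1149689 counts. The distance to the group's centre, the root mean square difference in log2 CPM corrected for group size, was 0.722 in D1, 0.680 in D2, 0.668 in D3, 0.997 in D4 and 0.776 in D7, and 0.727, 0.641, 0.703 and 0.822 in wt1, wt3, wt4 and wt5. The groups overlapped, and D4 was the farthest. The means were 0.769 ± 0.135 (SD, n = 5) and 0.723 ± 0.0749 (SD, n = 4), a difference of 0.0456 that did not pass (p = 0.683, exact two-sided permutation test, with 0.0159 the smallest p this design allows). Without D4 the difference was -0.0364 (p = 0.486, exact permutation test). The wt/wt oocytes come from an inbred strain and the mutant oocytes from a mixed one. The wt/wt libraries are also named as a series of their own. Genotype, background and library series therefore cannot be told apart in this comparison.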

How the data were processed

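The deposited table holds, per the labels and the methods, raw counts per gene for 14 single-oocyte libraries. The authors made the counts from 49-base single-end reads of poly(A)-primed cDNA that reaches up to 3 kb from the 3' end, aligned to mm10. The submitters' processing notes list TopHat2 2.0.6, HTSeq 0.5.3p9, R 3.2.0 and DESeq2 1.4.5, while the methods give another HTSeq version. The method does not mark strand, so overlapping antisense genes cannot be told apart.

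The members and gene lists were chosen with earlier results of these data known. Genes with a count in any of the 8 mutant libraries were ranked by total and the top 60% kept, 8704 of 14425. Mutant libraries had 929452 to 3741331 counts. In the summed oocytes, of 2016701 to 6926076 counts, 3 counts stood for 0.381 to 1.59 CPM, and such limits cover counting error only. In R 4.3.3, edgeR 4.0.16 (TMM, glmQLFit, glmQLFTest, Benjamini-Hochberg adjustment) fitted the oocyte as the only term over the 8 libraries, with 3 residual degrees of freedom and a biological coefficient of variation of 0.205. P-values thus measure the spread within pairs, which may be technical. Calls needed a log2 difference of at least 1 in size, for the oocyte term the range of the 5 fitted levels, together with an adjusted p below 0.05. The suffix was tested with the oocyte as a block. SEs are the absolute log2 difference over the root of the quasi-likelihood F. Levels given once per oocyte are CPM of summed libraries, those given per library CPM of single libraries, and log2 CPM used a prior count of 2. Spread between oocytes was compared by an exact permutation test (scipy 1.17.1).

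Named were Zbed3, Kdm1a, Hprt, Gapdh, Ppia and Nnt, the 10 highest genes per length, the 12 called genes of smallest p, for each oocyte the 2 higher and 2 lower called genes of smallest p, the 5 most even genes, and from each list its called members of smallest p, at most 4, or its 2 highest. Among these, which genes were given at length was chosen with their values known, and some, such as Kitl, Atp5j and Rpl39l, were not given. Uchl1 in the ranking, Zp2, Zp3, Bmp15, Ccnb1, Mos, Zar1, Trim28, Obox5, the genes of the suffix test and the 3' ends shown were named after their values were seen. Genes were matched to GENCODE M21 (GRCm38) by name for 23693 of 24064 (98.5%). In simulated counts over 8286 genes, 200 were changed in D4. Genes were scored by an adjusted p below 0.05 alone, with no log2 threshold. For the D4 contrast 56.0% of 2-fold and 98.0% of 4-fold changes were recovered, and for the oocyte term 30.0% and 95.0%. Of the genes passing, 5.52% and 6.72% were false. Libraries were drawn independently with a fixed dispersion, so these are not the rates of the calls reported here.

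Alternatives were DESeq2 size factors, library totals, no filter, filterByExpr, limma voom (limma 3.58.1), DESeq2 1.42.0, an adjusted p alone, thinned counts, Zbed3 left out, a robust fit, the suffix as a replicate block, and each oocyte left out in turn.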

Additional observations from a re-analysis of the deposited data

Results flagged for a closer look

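Measures over the 5 mutant oocytes were examined for 1 oocyte far from the other 4, in 40 sets, of which 3 passed where chance flags about 1 in 20. D4 had the highest total, 6926076 counts, against 2016701 to 3245395 in the others, the gap being 0.750 of the whole range. D4 also had the most genes with a count, 13249 against 10322 to 11044. D7 had the highest Kdm1a level, 4.39 CPM against 0 to 1.25, a difference of a few counts of which most came from the library with the suffix. With all libraries thinned to the same number of counts, 2526 genes were called for D4 against the others.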

How the results depend on the processing

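Among oocytes 5431 genes were called, 3180 with DESeq2 and 2447 to 5334 with 1 oocyte left out, the lowest without D4. The count for D1 was 1367, and 830 with library totals, 902 with thinned counts, 460 with DESeq2 and 1179 to 1697 with 1 oocyte left out. The count for D2 was 954, and 563 with library totals, 598 with no filter, 612 with thinned counts, 366 with DESeq2 and 253 (without D4) to 1447 (without D1). The count for D3 was 1062, and 552 with DESeq2 and 724 to 1772 with 1 oocyte left out. The count for D4 was 3331, and 2236 with DESeq2 and 3059 to 3504 with 1 oocyte left out. The count for D7 was 1375, and 806 with DESeq2 and 944 to 2062 with 1 oocyte left out. For the suffix 112 genes were called, 186 with library totals, 546 by an adjusted p alone, 56 with DESeq2 and 51 (without D3) to 236 (without D4). With no replicate block for the oocyte, edgeR called 0 genes for the suffix (87 at an unadjusted p under 0.05). With the suffix as a replicate block 5901 genes were called among oocytes, and the counts per oocyte stayed within 1.5 times. The difference in spread between mutant and wt/wt oocytes was 0.0456, and -0.0364 to 0.102 with 1 oocyte left out, reversed only without D4. Of the 10 highest genes per length 6 were also among the 10 highest by CPM with no length. The median SDs within and between oocytes were 0.301 to 0.398 and 0.624 to 0.724 with 1 oocyte left out. For the genes named, 67 of the alternatives' values lost a call and 7 gained one, and 1664 kept their side, while the 20 named differences of 1 oocyte kept their direction and call throughout. The cause of these shifts was not tested, except that thinning and leaving out oocytes leave fewer counts.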
